A study of Mus musculus with 4 samples.

Results

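The Lyve1 macrophages of the scraped intima were cells of the inner layer of mouse aorta that carried macrophage C1q RNA together with RNA of the resident genes Lyve1, Cd163, Cd209f or Cd209g. A cell was a member when it had at least 3 UMIs of C1qa, C1qb and C1qc together and more of these than of the endothelial gene Pecam1. It also needed at least 2 UMIs of Lyve1, Cd163, Cd209f and Cd209g together and at most 2 of Mmp12 and Itgax, the genes that mark the other macrophage of the intima. A UMI is the tag that marks each captured RNA molecule, so UMI counts are counts of molecules. The rule found 56, 52 and 40 cells in the 3 intimal libraries, 148 of 6334 intimal cells that passed quality control and of 14831 such cells in the 4 libraries of the study. The members were thus selected on their own measured UMIs of these 10 genes, whose values are given only as description. The same rule in the adventitial library found 449 cells, which served for comparison.

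Single-cell RNA was sequenced from C57BL/6 aorta in 4 libraries. Descending a and descending b held intimal cells of the aged descending aorta from 6 mice each, and arch held intimal cells of the young aortic arch from 8 mice. The adventitia library held cells of the outer layer of the aorta of aged mice, with the number of mice not stated and the intimal protocol repeated in its labels. All intimal cells were freed with trypsin, scraped from the opened vessel in actinomycin D, a transcription blocker, and passed through red cell lysis. Each library pooled animals, the ages are given only as aged or young, and no sex or genotype is named. The arch and descending groups differed in region, age and library at once, which cannot be told apart, and the labels do not say how libraries a and b differ beyond the 6 mice each.

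Macrophages that carry Lyve1, Folr2 and Timd4 are long-lived residents of many tissues. In the aorta they are best known from the adventitia, where they lie along vessels and clear debris. Lyve1 is a receptor for the matrix sugar hyaluronan, Folr2 a folate receptor, Timd4 a receptor for the phosphatidylserine of dying cells, and Cd163 takes up haemoglobin bound to haptoglobin. MHC class II molecules show peptides to helper T cells. They are made of the chains that H2-Aa, H2-Ab1 and H2-Eb1 encode, are guided by the invariant chain Cd74, and are loaded with peptide by the H2-DM complex.

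The promoters of 4 MHC class II genes are shown because MHC class II genes were among those that differed between arch and descending members. H2-Aa, H2-Eb1 and H2-DMa passed the test there, and H2-DMb1 is shown as the partner of H2-DMa that did not. H2-Ab1 and Cd74 are not shown. The windows are the 120 bases before the first start site that RefSeq lists on GRCm38.p6, written along the gene's strand, with the letters CTGATTGG, the core of the Y box, in capitals.

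H2-Aa, chr17:34287824-34287943, minus strand: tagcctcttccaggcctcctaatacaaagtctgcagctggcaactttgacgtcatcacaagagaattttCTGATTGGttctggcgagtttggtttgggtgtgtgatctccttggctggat
H2-Eb1, chr17:34305747-34305866, plus strand: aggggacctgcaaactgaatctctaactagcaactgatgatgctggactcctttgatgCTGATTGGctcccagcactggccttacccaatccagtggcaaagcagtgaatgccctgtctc
H2-DMa, chr17:34122712-34122831, plus strand: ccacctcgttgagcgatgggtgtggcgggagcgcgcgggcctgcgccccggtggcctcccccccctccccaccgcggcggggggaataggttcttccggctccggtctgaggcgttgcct
H2-DMb1, chr17:34153071-34153190, plus strand: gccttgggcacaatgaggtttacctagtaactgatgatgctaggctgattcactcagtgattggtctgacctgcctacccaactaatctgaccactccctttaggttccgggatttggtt

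The letters began 51 bases before the start of H2-Aa and 62 bases before that of H2-Eb1. In the windows of H2-DMa and H2-DMb1 the exact letters were not found in either orientation. The H2-DMb1 window holds gtgattgg, which differs only in the first letter, so a Y box there is not excluded. RefSeq also lists a start site 2 for H2-DMa, not shown, where the letters were not found either. Of 32851 start sites in the RefSeq table, 934 (2.84%) held the letters in a window of this length. A match is a description of letters and not of a bound site.

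The intimal libraries held 2030, 2132 and 2172 cells after quality control and the adventitia 8497, from 13181305 to 29370967 UMIs per library. Members had medians of 3809, 4149, 5553 and 3473 UMIs per cell in descending a, descending b, arch and adventitia, and 229233, 263409, 210553 and 1797426 UMIs in sum. Their median share of mitochondrial UMIs was 3.46%, 3.73%, 2.65% and 5.39%. Between libraries 4 to 31 cell barcodes were shared and 0 member barcodes. Levels below are CPM, the UMIs of a gene per 1000000 UMIs summed over members, given in the order descending a, descending b and arch, then the adventitia where named. Their 95% intervals are exact Poisson intervals and cover counting error only.

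As a share of all cells the members made up 2.76% (95% exact Clopper-Pearson interval 2.09 to 3.57) and 2.44% (1.83 to 3.19) of descending a and b, against 1.84% (1.32 to 2.50) for arch. Among cells that passed the C1q part of the rule they made up 60.2% (49.5 to 70.2), 61.2% (49.99 to 71.6) and 18.6% (13.6 to 24.5). In the arch 71 of the other C1q cells were Mmp12 Itgax macrophages and 102 carried neither set of genes. These latter cells had a median of 4 C1q UMIs, and 11 of them had 20 or more. With at least 20 C1q UMIs required, the members' share of C1q cells was 65.1%, 71.8% and 32.3% in descending a, descending b and arch. The shares follow from the rule and have no replicate for the arch, so they were not tested.

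Few intimal members lay close to the limits of the rule, but in the arch more cells lay just outside it. At a sum of exactly 2 UMIs over Lyve1, Cd163, Cd209f and Cd209g lay 2, 0 and 2 members, while the medians were 14, 16.5 and 15. Just outside, 1, 3 and 9 cells met the rest of the rule with a sum of 1. Cells that failed only by their Pecam1 UMIs numbered 1, 0 and 9. With 1 or 2 C1q UMIs, 3, 7 and 10 cells met the resident and the Mmp12 and Itgax limits, and with 0 C1q UMIs 13, 2 and 3 did. Members with any Mmp12 or Itgax UMI numbered 2, 0 and 3. The fewest C1q UMIs in a member were 25, 9 and 27. In the adventitia 102 of 449 members lay at the sum of 2 and the fewest C1q UMIs were 3, so the same rule reached more weakly marked cells there.

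The label was borne out by marker genes that the rule did not use. Folr2 (GRCm38 chromosome 7, 101839988 to 101857194, whole gene) stood at 1623, 1773 and 1876 CPM and was found in 92.9%, 98.1% and 100% of members. Its share of endothelial cells with a UMI in the same libraries, 3.32%, 3.71% and 4.75%, gives the background at median depths of 5322, 5210 and 5994 UMIs. With each cell thinned to 2000 UMIs the members' shares were 83.6%, 93.9% and 90%, over 55, 49 and 40 cells, and the endothelial shares 0.781%, 1.20% and 1.23%. F13a1 (chromosome 13, 36867178 to 37050244), which encodes the catalytic chain of the clot-stabilising factor XIII, stood at 1758, 2544 and 1919 CPM and had a UMI in every member of the 3 libraries. The 3 libraries lay close together in Folr2 and in the rule's own Cd163 (585, 543 and 503 CPM). Descending b lay above descending a and arch in F13a1 and in the rule's own Lyve1 (1016, 1389.5 and 1083 CPM).

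Timd4 and Vsig4 were carried by fewer members. Timd4 (chromosome 11, 46810800 to 46844332) stood at 318.5, 239 and 190 CPM and had a UMI in 66.1%, 57.7% and 52.5% of members, against at most 0.453% of endothelial cells. Vsig4 (chromosome X, 96247203 to 96293438), a complement receptor of resident macrophages, was at 379.5 CPM (304 to 468) in descending a, 288.5 CPM (227 to 361) in descending b and 42.7 CPM (19.6 to 81.1) in the arch. It was found in 46.4% and 42.3% of descending members and in 7.5% of arch members, although arch members were the deepest. The interval of the arch did not meet those of the descending libraries. After thinning, the Vsig4 shares were 32.7%, 32.7% and 5%.

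**Figure D1:**
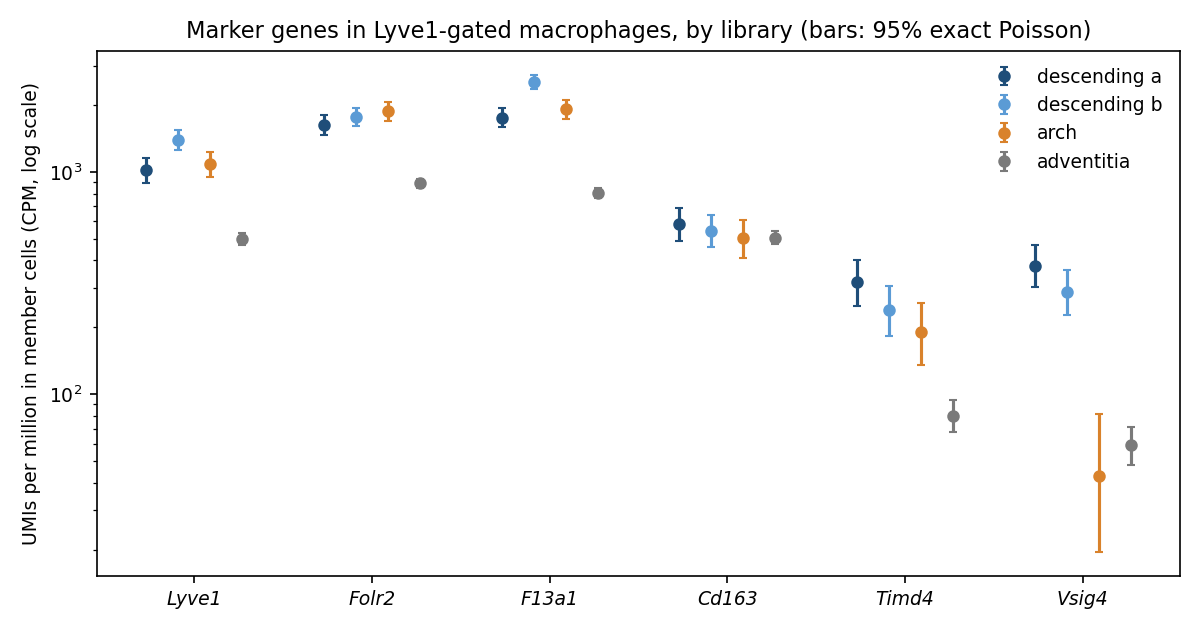
Level of the 6 marker genes in Lyve1-gated macrophages, in CPM on a log axis. Each point is 1 library and bars are 95% exact Poisson intervals; Vsig4 stood at 42.7 CPM in the arch against 379.5 and 288.5 CPM in the descending libraries.

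Beyond the markers, members shared a large resident programme. The list of this programme had 25 measured genes that the rule did not use. Among them the selenium carrier Selenop stood at 7355, 7828 and 6160.0 CPM, with 610, 766 and 596 CPM in endothelial cells. The chemokine Pf4 stood at 5505, 5095 and 4450.2 CPM, against 12.1, 15.2 and 16.6 CPM in endothelial cells, and both were found in every intimal member. The mannose receptor Mrc1 stood at 846, 1105 and 746 CPM and the leukotriene synthase Ltc4s at 1165, 1017 and 807 CPM. Igf1, a growth factor, stood at 336, 372 and 342 CPM, and Maf, a transcription factor of resident macrophages, at 528, 535 and 627 CPM. Lipid and iron genes were among the most abundant, with Apoe at 20215, 12680 and 17692 CPM and the ferritin light chain Ftl1 at 20656, 19669 and 16623 CPM. The endothelial cells of these libraries also held Apoe, at 4239, 4195 and 8235 CPM.

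Chemokines ranged from even to uneven among the cells of a library. Pf4 was even, with the 6, 6 and 4 highest cells holding 26.1%, 27.7% and 19.6% of its UMIs. Ccl8, a ligand that draws monocytes and T cells, was uneven, with 58.6%, 59.4% and 71.7% of its UMIs in as many cells. Cxcl13, the chemokine that draws B cells, had a UMI in 30.4% and 26.9% of descending members, and the 6 highest cells of each library held 86.4% and 81.1% of it. Ccl4 had no UMI in 50 of 56, 45 of 52 and 32 of 40 members. Cells thinned to 2000 UMIs were also split by Timd4. With a Timd4 UMI, the medians of H2-Aa, H2-Ab1, H2-Eb1 and Cd74 together were 1.5, 2 and 5 UMIs. Without it they were 4, 1 and 23. In the adventitia the medians were 30 with and 55 without a Timd4 UMI. The direction in descending b was opposite to that in the others. Cells are not replicates and a Timd4 UMI can be missed at this depth, so whether Timd4 marks a class was not tested.

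Members were set beside the Mmp12 Itgax macrophages of the same libraries, which had more than 2 UMIs of Mmp12 and Itgax and under 2 of the 4 resident genes. There were 24, 16 and 71 of these cells, with medians of 4951, 5546.5 and 9083 UMIs. The rule chose the cells on this contrast, so the values are a description and were not tested. Of 2365 genes at 50 CPM or more in every intimal library of the higher side, 55 (2.33%) were at least 4-fold higher and 68 (2.88%) at least 4-fold lower in members in every intimal library, and 4 and 2 of these were genes of the rule. In members of every intimal library 23 genes of the resident programme were at 50 CPM or more. Of the programme 19 genes were in the first set and 0 in the second.

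On the members' side Ccl8 stood at 2434, 2217 and 437 CPM in members and at 0, 11.1 and 5.99 CPM in the Mmp12 Itgax cells, from 0, 1 and 4 UMIs. The ficolin Fcna, a soluble lectin of innate defence, stood at 1069, 1503 and 679 CPM in members and at 23.2, 11.1 and 4.49 CPM in the other type. The eosinophil-drawing Ccl24 stood at 859, 729 and 1059 CPM against 0, 0 and 5.99 CPM. Such genes were picked for the size of this gap in every library, so their separation follows from the choice. The other genes named by size of difference were F13a1, Folr2, Ccl7, the carbonyl reductase Cbr2, Fxyd2 (a regulator of the sodium pump), Ltc4s, the lectins Clec10a, Cd209d, Cd209b and Mrc1 (the Cd209 genes are close copies, so their reads may be split), the complement protein C4b and the endothelin receptor Ednrb.

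On the other side Rgs1, which dampens G protein signals, was at 26.2, 38.0 and 23.8 CPM in members and at 3874, 3052 and 2177 CPM in the Mmp12 Itgax cells. The cytokine Il1b was at 4.36, 7.59 and 4.75 CPM in members, from 1, 2 and 1 UMIs, and at 953, 1128 and 595 CPM in the other type. Ccl4 was at 140, 186 and 190 CPM against 3602, 4688 and 3393 CPM. The same held for the collagenase Mmp13, the surface proteins Cd72 and Cd52, the Fc receptor Fcgr4, the survival genes Bcl2a1a and Bcl2a1d, and for Scimp, Glipr1, H2-M2, Zmynd15, Basp1 and Pilra. Bcl2a1a and Bcl2a1d are near-identical copies, so the split of reads between them is uncertain.

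Chemokines fell on both sides and MHC class II genes on the other type's side. In members of every intimal library 13 chemokines were at 50 CPM or more. Ccl2, Ccl6, Ccl7, Ccl8, Ccl24 and Pf4 were at least 4-fold higher in members in every library. Ccl3, Ccl4 and Cxcl16 were at least 4-fold lower, where the level was required in the Mmp12 Itgax cells instead. Among MHC class II genes 8 were at 50 CPM or more in members of every intimal library. At least 4-fold lower were 5, namely H2-Aa, H2-Ab1, H2-Eb1, H2-DMb1 and Cd74, and 0 were higher. H2-Aa stood at 1016, 547 and 2854 CPM in members and at 9211, 11478 and 11586 CPM in the other type. Of 9 iron and haem genes at that level in members 1 passed 4-fold, the haem oxygenase Hmox1, at 366, 475 and 418 CPM against 31.0, 33.2 and 62.9 CPM.

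**Figure D2:**
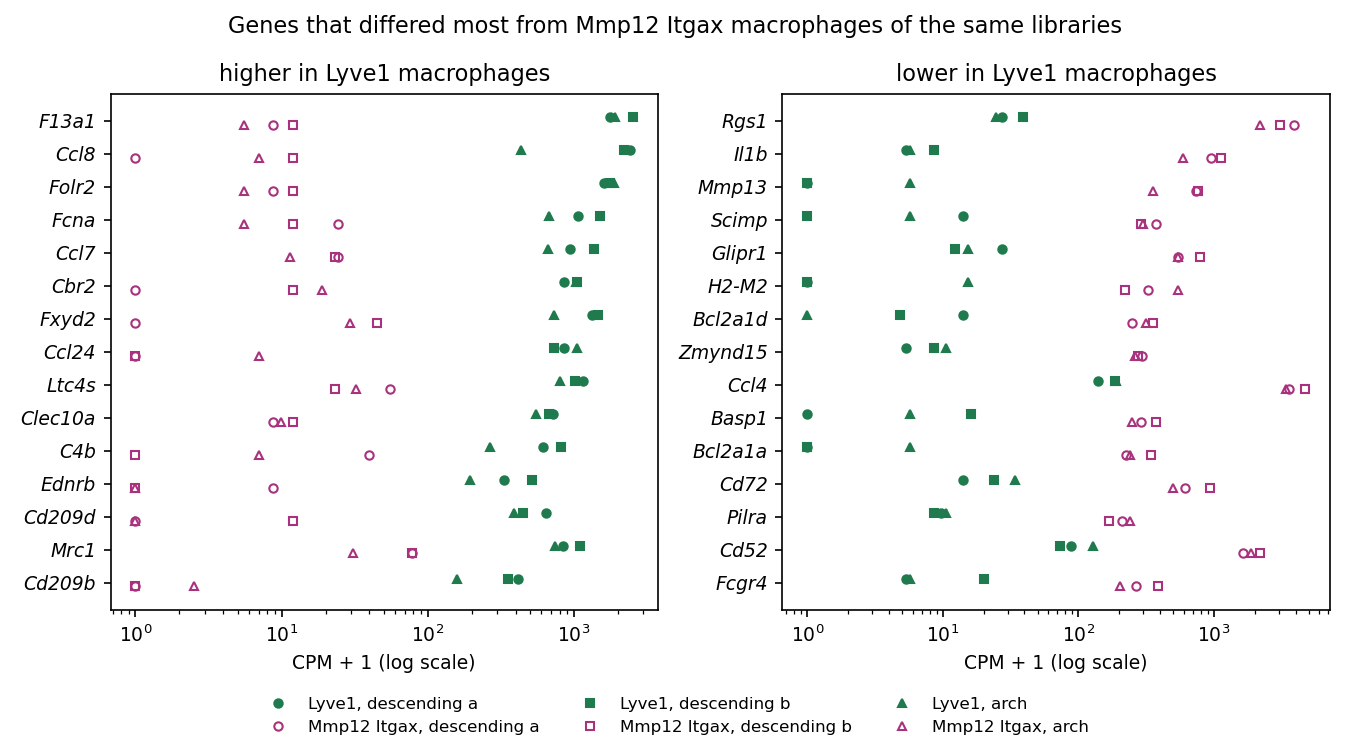
CPM + 1 on a log axis for the 15 genes with the largest difference in each direction, in Lyve1 macrophages (filled) and Mmp12 Itgax macrophages (open) of the 3 intimal libraries. The genes were picked for this gap, so the filled and open symbols of a gene lie apart by choice, as for Ccl24 (859, 729 and 1059 CPM against 0, 0 and 5.99 CPM).

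Arch members differed from descending members in few genes. Of 4311 genes tested, 21 (0.487%) were higher in the arch and 6 (0.139%) lower, at a Benjamini-Hochberg adjusted p of 0.05 from the quasi-likelihood test of edgeR (n = 1 library against 2). The adjusted p-values assume that the lone arch library varies as the descending ones do, and the fit had 1 residual degree of freedom. At an unadjusted p under 0.05 the counts were 164 and 143. DESeq2 called 5 and 6. With DESeq2's size factors in edgeR the calls were 40 and 30, so the higher share fell from 77.8% to 57.1%, while the median log2 fold change over all genes moved from -0.01 to -0.02. Without cells that had 10 or more red cell UMIs only 18 arch members were left and 1 gene, H2-Eb1, was called. The 7 red cell markers together stood at 8454, 957 and 2037.5 CPM in members, and their part in the calls was not tested.

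MHC class II genes were one of the groups on the higher side. Of 10 genes of the presentation list tested, 5 rose and 0 fell in the arch, with a list median log2 fold change of 1.15 against -0.01 over all genes. H2-Eb1 (chromosome 17, 34305867 to 34316674) stood at 532 and 334 CPM in the descending libraries and at 1667 CPM in the arch, a log2 fold change of 1.93 ± 0.27 (SE, edgeR adjusted p = 0.0074). H2-Aa (chromosome 17, 34282744 to 34287823) stood at 1016 and 547 against 2854 CPM (1.85 ± 0.30, edgeR adjusted p = 0.0139). The arch level lay above both descending libraries in each, and descending a lay above descending b.

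H2-Ab1 stood at 872.5, 456 and 2546 CPM (log2 fold change 1.92) and the invariant chain Cd74 at 4563, 2422 and 10985 CPM (1.63). H2-DMa, a chain of the peptide-loading complex, stood at 144, 98.7 and 427 CPM (1.80). All 3 passed by edgeR. Its partner H2-DMb1 did not (135, 75.9 and 162 CPM, log2 fold change 0.61, edgeR adjusted p = 0.798), nor did the co-stimulatory Cd86 (109, 141 and 80.7 CPM, adjusted p = 0.797) or Ctss, the protease that trims the invariant chain (907, 1336 and 888 CPM, adjusted p = 0.814).

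These calls depended on the tool. With DESeq2 H2-Eb1 passed (adjusted p = 2.53e-05, range over 15 alternatives 4.1e-25 to 0.0166), while H2-Aa and H2-Ab1 (0.449), H2-DMa (0.079) and Cd74 (0.796) did not. Without cells of 10 or more red cell UMIs, H2-Aa (log2 fold change 2.68, adjusted p = 0.054), H2-Ab1 (2.56, 0.0817), H2-DMa (2.30, 0.148) and Cd74 (2.36, 0.0727) also missed, with larger fold changes than over all members. Each of these 4 kept its edgeR call in 13 of 15 alternatives, those 2 being the exceptions. The largest adjusted p over the alternatives was 0.449 for H2-Aa and H2-Ab1, 0.148 for H2-DMa and 0.796 for Cd74, and the smallest lay between 1.7e-24 and 8.8e-10. The log2 fold change of H2-Aa ranged from 1.49 to 2.93 over the alternatives and was 2.37 and 1.45 without descending replicate 1 and 2.

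Per cell, MHC class II RNA varied widely in every library. Summed over H2-Aa, H2-Ab1, H2-Eb1 and Cd74, the median was 7.39 and 8.67 UMIs per 10000 in the descending libraries, 77.0 in the arch and 253 in the adventitia. The lower and upper quartiles were 3.03 to 71.1, 3.13 to 49.4, 16.1 to 237 and 71.4 to 517. Cells at 0 numbered 8 of 56, 4 of 52, 0 of 40 and 1 of 449. The ranges overlapped, with a top descending cell at 939 and a lowest arch cell at 3.28. The 6 highest cells held 65.3% of these UMIs in descending a, and the 4 highest held 43.1% in the arch.

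Other cells of the libraries also held these RNAs. Endothelial cells had H2-Aa at 133, 367 and 245 CPM and Cd74 at 255, 740 and 542 CPM. An H2-Aa UMI was found in 58.9%, 46.2% and 87.5% of members and in 42.2%, 61.8% and 71.1% of endothelial cells, and after thinning to 2000 UMIs in 50.9%, 30.6% and 70% against 19.8%, 40.8% and 38.4%. In descending b the share in members was below that in endothelial cells. The Mmp12 Itgax macrophages numbered 24, 16 and 71, and those of the arch held H2-Aa at 11586 CPM and Rgs1 at 2177 CPM. In arch members these genes stood at 2854 and 23.8 CPM. The part of RNA from other cells in the MHC class II values was not tested. Without members that had a Pecam1 or Cdh5 UMI, which left 23, 12 and 10 cells, the log2 fold change of H2-Aa was 2.93.

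**Figure D3:**
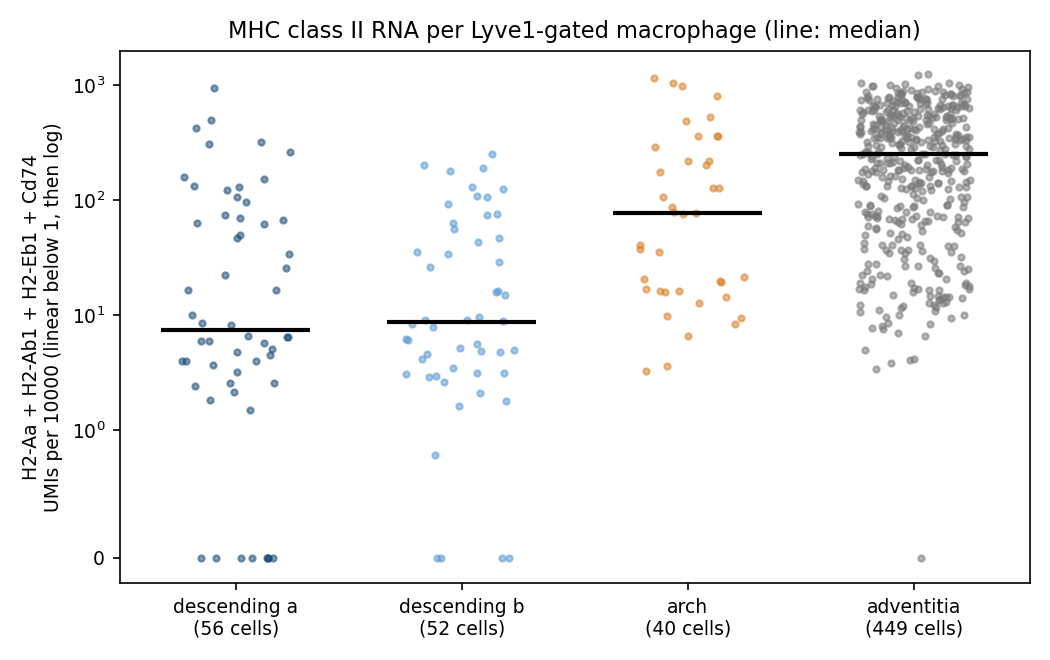
UMIs of H2-Aa, H2-Ab1, H2-Eb1 and Cd74 per 10000 UMIs in each Lyve1-gated macrophage, on an axis that is linear below 1 and logarithmic above. Points are cells and lines are medians (7.39, 8.67, 77.0 and 253), and the arch cells overlap the upper part of the descending cells.

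The 6 genes lower in the arch were Ccl8, Wfdc17, Vsig4, Cxcl13, C4b and Ecm1. All 6 were at higher levels in descending members than in the cells outside the C1q part of the rule, a share that was not taken over all genes tested. Ccl8 (chromosome 11, 82115185 to 82116799) stood at 2434 and 2217 CPM in the descending libraries and 437 CPM in the arch, a log2 fold change of -2.43 ± 0.26 (SE, edgeR adjusted p = 0.00115, range over alternatives 3.8e-19 to 0.054). Wfdc17 (chromosome 11, 83703991 to 83706268), which encodes a small protease-inhibitor-like protein, stood at 8773 and 9559 against 3063 CPM (-1.60 ± 0.22, edgeR adjusted p = 0.00695). Vsig4 fell by 2.98 ± 0.43 on the log2 scale (edgeR adjusted p = 0.0074). In Ccl8 and Wfdc17 the descending libraries lay close together, and in all 3 genes the arch lay below both.

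Cxcl13 (chromosome 5, 95956951 to 95961068) had 125 and 53 UMIs in the descending libraries, 545 and 201 CPM, and 0 in the arch. Set against a floor of 3 counts over the arch members it was at least 25.4-fold lower than in both descending libraries pooled (edgeR adjusted p = 0.0115), and at least 38.3-fold and 14.1-fold lower than in descending a and descending b alone. The floor covers counting error only, and the descending libraries lay well apart. The complement protein C4b stood at 611, 820 and 266 CPM (log2 fold change -1.45, edgeR adjusted p = 0.0468), with reads that its near-copy C4a could share. The matrix protein Ecm1 stood at 598, 680 and 209 CPM (-1.63), and endothelial cells held it at 136, 142 and 215 CPM. Ecm1 lost its direction without members that had a Pecam1 or Cdh5 UMI (0.06). In that alternative, with 23, 12 and 10 cells left, Vsig4 (log2 fold change -2.32, adjusted p = 0.215) and C4b (-1.08, adjusted p = 0.358) kept their direction without passing.

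Smooth muscle and fibroblast genes made up much of the rest of the higher side. Acta2, the smooth muscle actin, stood at 21.8 and 11.4 CPM in the descending libraries and 760 CPM in the arch (log2 fold change 5.51 ± 0.37 SE, edgeR adjusted p = 2.1e-05). Myl9, a myosin light chain, had 0, 0 and 31 UMIs, at least 24.2-fold higher against the floor. Tagln and Tpm2, of the same contractile set, also rose. So did the collagen Col3a1, the matrix proteins Sparc, Dcn and Mfap5, and Igfbp7, Rarres2, Gsn and Pi16. Of the 21 genes higher in the arch, 11 were at lower levels in members than in arch cells outside the C1q part of the rule. The same share over all genes tested was not taken.

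Several of these genes are themselves markers of other cells: Acta2, Tagln, Myl9 and Tpm2 are among the 8 smooth muscle markers, and Col3a1, Dcn and Gsn among the 10 fibroblast markers. The marker sums therefore restate those calls. The smooth muscle markers together stood at 26.2 and 30.4 CPM in descending members and 1335 CPM in arch members, with medians per cell of 0, 0 and 4.198 per 10000 UMIs, and the cells outside the gate held 139, 156 and 798 CPM. At 0 were 6 of the 8 in descending a, 4 in descending b and Des in the arch. The fibroblast markers stood at 707, 930 and 2318 CPM in members. Leaving out members with 10 or more UMIs of either list kept 25 arch cells, and 7 genes no longer passed. Of these Tagln (log2 fold change 4.62), Col3a1 (3.15), Dbp (2.05) and Mfap5 (1.20) kept much of their fold change, and Dcn (0.21), Pi16 (0.38) and Gsn (0.34) did not. Tagln, Col3a1, Dcn and Gsn are themselves on the lists that removed the cells, so a loss in them follows in part from the filter. Tpm2 was not tested in this alternative. Acta2 (4.10), H2-Aa (2.25), Ccl8 (-1.98) and Vsig4 (-2.10) still passed. The part of other cells' RNA in the rest was not tested.

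**Figure D4:**
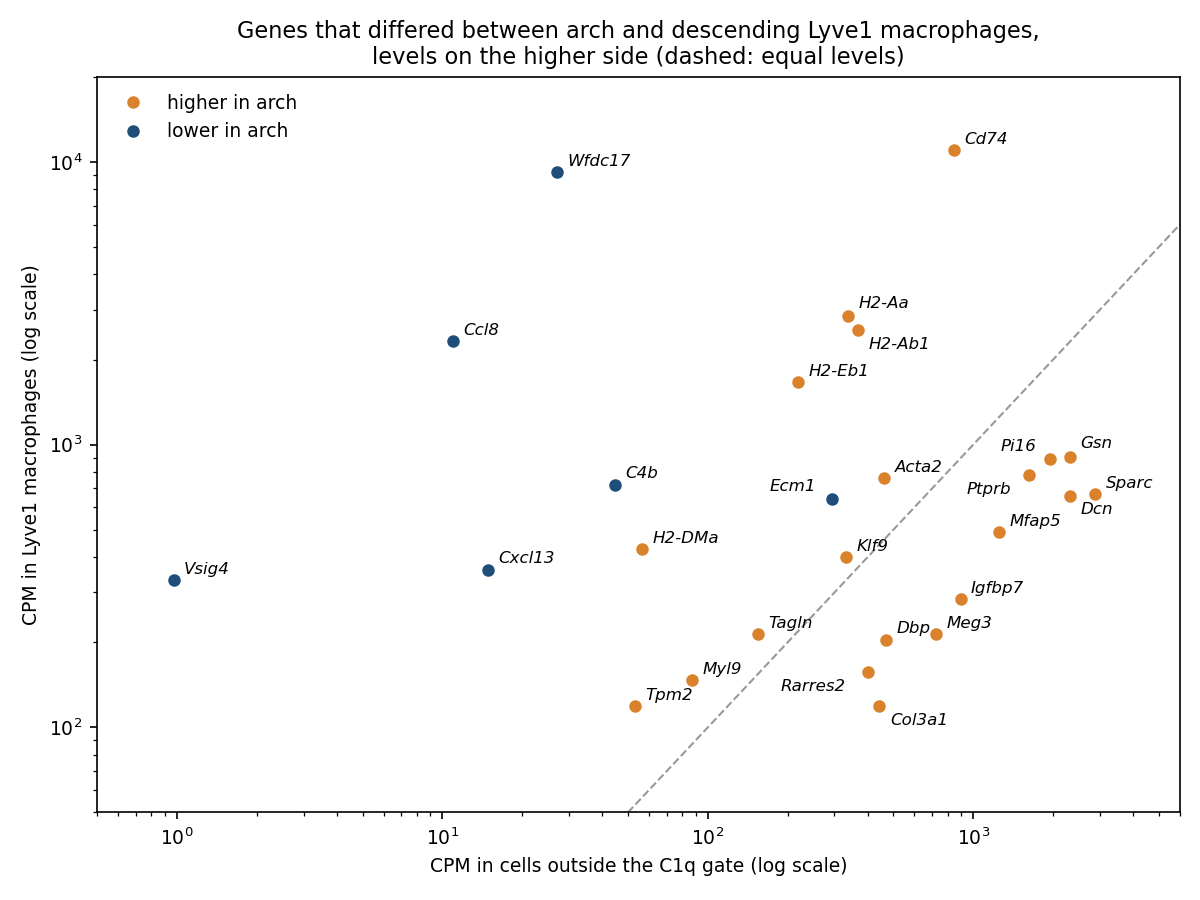
Level on the higher side of the 27 genes that differed between arch and descending members, in members (vertical) and in cells outside the C1q part of the rule (horizontal), both in CPM on log axes. Points above the dashed line were more abundant in members, as all 6 genes lower in the arch and the MHC class II genes were.

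The remaining calls were the circadian output gene Dbp (34.9, 45.6 and 204 CPM), the glucocorticoid-responsive factor Klf9 (105, 148 and 399 CPM), the noncoding RNA Meg3 and the endothelial phosphatase Ptprb. Of these only Klf9 was more abundant in members than in the other cells, at 399 against 332 CPM. In the resident programme 0 of 25 genes rose and 2 fell in the arch, Vsig4 and C4b, with a median log2 fold change of -0.32. Folr2 (0.12 ± 0.22 SE, edgeR adjusted p = 0.923) and F13a1 (-0.19 ± 0.26 SE, edgeR adjusted p = 0.892) did not pass. Of 17 scavenging, 21 lysosomal and 16 inflammatory genes tested, 0 passed in the arch. Of 16 interferon, 15 lipid and 18 immediate early genes tested, 0 passed either. Over all 4311 genes 0.487% were higher and 0.139% lower, so 0 calls in lists of this size lie near that share. The list medians of log2 fold change, in that order, were -0.21, -0.48, -0.03, -0.22, -0.47 and 0.51, against -0.01 over all genes. In the lysosomal list Ctsd (1099, 1219 and 532 CPM, adjusted p = 0.0909) and Ctsc (1736, 1363 and 774 CPM, adjusted p = 0.198), both cathepsins, were lower in the arch without passing edgeR's test.

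RNA of endothelial cells was present in all intimal members. Pecam1 had a UMI in 53.6%, 73.1% and 75% of them, at 292, 410.0 and 323 CPM, 8.14%, 10.2% and 11.5% of the endothelial level. Cytl1, one of the most abundant endothelial RNAs here, stood at 16.0%, 13.5% and 18.3% of its endothelial level and Vwf at 18.6%, 15.4% and 14.5%. The 12 endothelial markers together stood at 1640, 1409 and 1843 CPM in members and at 9963, 9006 and 7441 CPM in the cells outside the gate. Prox1, the factor that defines lymphatic endothelium, which also carries Lyve1, had 0 UMIs in members of the 3 libraries. Of the 6 lymphatic markers 3, 3 and 5 were at 0, and the 6 together stood at 21.8, 30.4 and 4.75 CPM. Doublet scores called 0, 1 and 2 members. Markers of B cells and T cells were at most 34.9 and 80.7 CPM in sum.

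Cells found by the same rule in the adventitia were compared with the descending members in the same fit. Of 4311 genes, 280 (6.5%) were higher and 158 (3.67%) lower in the adventitia by edgeR (n = 1 library against 2), 4 of the latter being genes of the rule, and DESeq2 called 58 and 29. At an unadjusted p under 0.05 the counts were 558 and 412. This comparison shares the 2 descending libraries with that of the arch. Layer, any difference in dissociation and library cannot be told apart here. The counts of calls rest on unequal depth, since the adventitial members summed to 1797426 UMIs over 449 cells and the arch members to 210553 over 40, although single adventitial cells were the shallowest. Whether the adventitia differed in more genes than the arch did was not tested.

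Part of the resident programme was lower in the adventitia. Of its 25 tested genes 0 rose and 12 fell, with a median log2 fold change of -0.77 against -0.03 over all genes. F13a1 stood at 1758, 2544 and, in the adventitia, 807 CPM (log2 fold change -1.24 ± 0.27 SE, edgeR adjusted p = 0.0112). Timd4 stood at 318.5, 239 and 80.1 CPM (-1.61, edgeR adjusted p = 0.0032) and Vsig4 at 379.5, 288.5 and 59.0 CPM (-2.31, edgeR adjusted p = 0.000302). Maf, Gas6, Igf1, Ltc4s, Fcna, Cbr2, Stab1, Selenop and Ccl24 also fell. Folr2 did not pass (1623, 1773 and 890.2 CPM, -0.75, edgeR adjusted p = 0.0567), nor did Pf4 (-0.24, adjusted p = 0.5498). The rule's own Cd163 was level at 507 CPM, and Lyve1 stood at 499.6 CPM. Adventitial members were more weakly marked by the rule. Their median sum over Lyve1, Cd163, Cd209f and Cd209g was 5 UMIs, against 14 and 16.5 in descending a and b. A Lyve1 UMI was missing in 137 of 449 of them, against 5 of 56 and 1 of 52. The part of this weaker marking in the lower programme was not tested. Of the 12 genes, Igf1, Stab1 and Ccl24 passed in 7 of 15 alternatives, Cbr2 in 9, Fcna, Gas6, Maf and Selenop in 12, Timd4 and Ltc4s in 13, F13a1 in 14 and Vsig4 in 15.

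MHC class II genes were again higher, with 6 of 10 risen and 0 fallen and a list median of 2.13. Over all genes tested 6.5% were higher and 3.67% lower, with a median of -0.03. The part of the weaker marking of adventitial members in the rise of MHC class II genes was not tested either. H2-Eb1 stood at 4182 CPM in the adventitia (log2 fold change 3.45 ± 0.27 SE, edgeR adjusted p = 9.5e-06), H2-Aa at 5077 CPM, Cd74 at 14082 CPM and H2-DMb1 at 284 CPM (1.62, edgeR adjusted p = 0.00451). The cells outside the gate there held H2-Eb1 at 1076 CPM, more than in the descending members themselves. Inflammatory genes rose in 8 of 16 and fell in 0, among them Il1b (4.36, 7.59 and 86.8 CPM) and Tnf (4.36, 41.8 and 120 CPM). Il1b, Il6 and Tnfaip3 were less abundant in the adventitial members than in the cells outside the gate, where Il1b stood at 137 CPM. Of 19 chemokines tested 9 rose and 1, Ccl24, fell, and the risen Cxcl1, Ccl5, Ccl11 and Cxcl12 were likewise less abundant in members than outside the gate. The part of RNA from those cells was not tested. The filter on low counts kept a gene that was abundant enough in 1 library alone. Il6 (0, 1 and 113 UMIs), Il1rn (0, 1 and 74) and Cxcl3 (0, 1 and 106) were near 0 in descending members, so a fall could not show. The counts of risen inflammatory genes and chemokines follow in part from this filter. Cxcl2 stood at 1680, 1864 and 3463 CPM and Ccl4 at 140, 186 and 536 CPM, whereas Ccl8 (2434, 2217 and 2566 CPM, adjusted p = 0.428) and Cxcl13 (545, 201 and 459.5 CPM, adjusted p = 0.490), the genes low in the arch, did not pass.

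**Figure D5:**
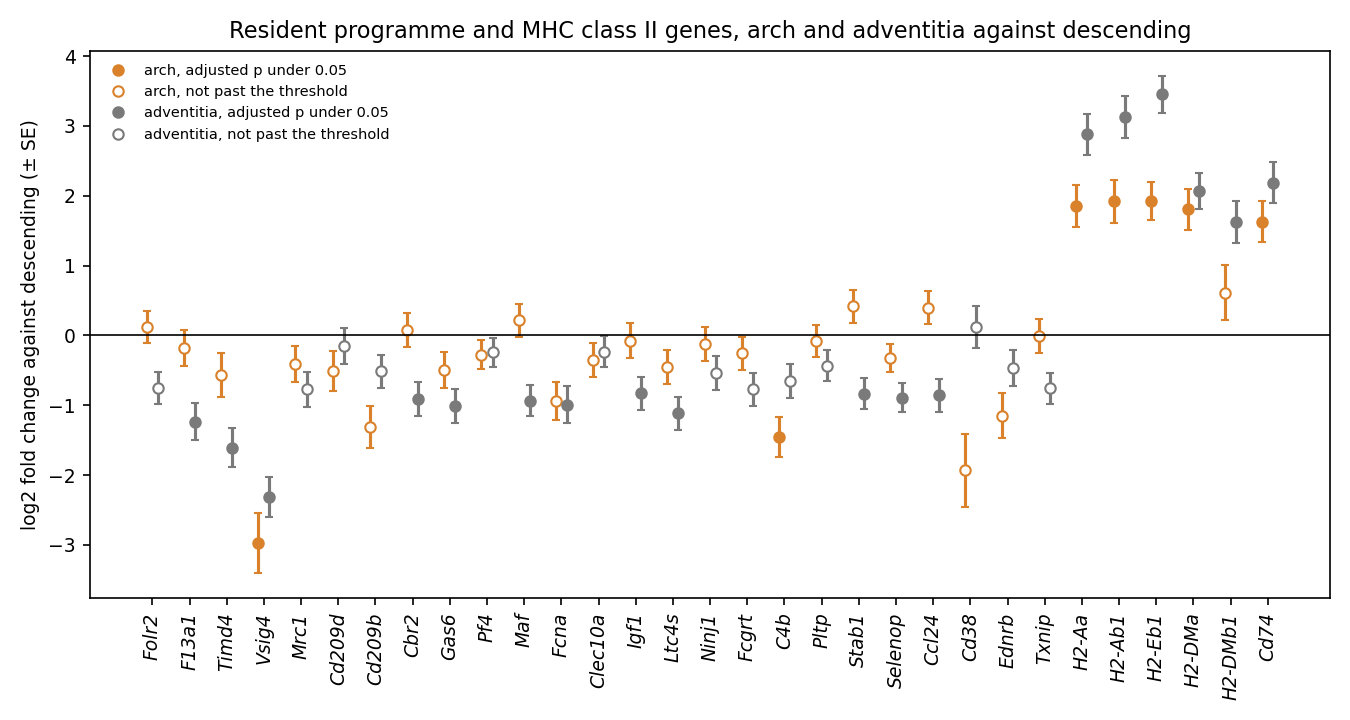
Log2 fold change (± SE) of the 25 resident genes and 6 MHC class II genes in the arch and in the adventitia, each against the same 2 descending libraries. Filled points passed edgeR's adjusted p of 0.05; MHC class II points lie above 0 in both, and 12 resident genes passed below 0 in the adventitia against 2 in the arch.

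In the immediate early and dissociation list 6 of 18 genes rose and 1, Jund, fell in the adventitia, with a median log2 fold change of 0.28. Over all genes tested 6.5% were higher and 3.67% lower, with a median of -0.03. Hspa1b (1, 1 and 350 UMIs) was near 0 in descending members, so a fall could not show in it either. The heat shock genes Hspa1a (118, 49.4 and 914.6 CPM), Hspa1b and Hsp90aa1 (222, 232 and 821 CPM) and the receptor Nr4a1 (17.5, 19.0 and 209 CPM, with 352.5 CPM outside the gate) were among the risen. Hspa1a and Hspa1b are near-identical copies, so reads may be split between them. Among interferon genes Rsad2 (196, 34.2 and 8.35 CPM), Ifit3 (205, 38.0 and 13.4 CPM) and Irf7 (161, 94.9 and 33.9 CPM) fell and Cxcl10 rose, and in Rsad2 and Ifit3 descending a lay far above descending b. Fxyd2 (1339, 1458 and 345 CPM, log2 fold change -1.84 ± 0.24 SE, edgeR adjusted p = 0.000413) and the epithelial cytokine Tslp (122, 125 and 28.9 CPM, adjusted p = 0.00277) were higher in descending members, where both exceeded the cells outside the gate.

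The largest fold changes of this comparison were of genes known from other cells. On the higher side the plasma cell genes Jchain (1201 CPM) and Mzb1, the fat genes Ucp1 (631.5 CPM), Cox8b and Thrsp, the mesothelial and epithelial genes Msln, Upk3b, Krt19, Slpi and Lgals7, and the capillary genes Rbp7 and Gpihbp1 had 0 UMIs in both descending libraries. On the lower side stood Gkn3, Adh7, Cytl1, Klk10, Smoc1, Bmx, Vwf, Ptprb, Pde3a, Gxylt2, 1500015O10Rik and AU021092, of which Cytl1 and Vwf are among the endothelial RNAs described above. Of the 280 higher genes 73 and of the 158 lower genes 88 were more abundant in members than in the cells outside the gate. The same share over all genes tested was not taken, so these counts do not set the called genes apart from the rest. The 7 mesothelial markers stood at 0, 0 and 463 CPM in members of descending a, descending b and the adventitia, and the 7 red cell markers at 8454, 957 and 12045 CPM, with 1 cell of descending a at 2535 per 10000 UMIs. The part of such RNA in the other changes was not tested.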

How the data were processed

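The 4 libraries of mouse aorta were profiled by single-cell RNA sequencing. Per the labels' protocols, libraries were made with the Chromium Single Cell 3' kit v2, and per the submitters' processing notes reads were counted with Cell Ranger 2.1.2 on mm10 (GRCm38). Per barcode, the authors deposited raw UMI counts of 27998 genes, 353 of them without a symbol. Sepp1, Clec6a, Clec7a and some T and B cell receptor genes of the lists were not matched by symbol. Gene spans are from GENCODE M21 and promoters from RefSeq.

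Cells under 200 genes or above 10% mitochondrial UMIs were dropped, and doublets were not removed in the main analysis. Raw counts were summed over members per library and tested with edgeR 4.0.16 (TMM, filterByExpr, glmQLFit, glmQLFTest; R 4.3.3) in a fit of all 4 libraries by group, with Benjamini-Hochberg adjustment at 0.05. The pooled dispersion was 0.0266 with 10.96 prior degrees of freedom. DESeq2 1.42.0 was an alternative. P-values measure the spread between the 2 descending libraries, which may be technical. A bound on the fold of a gene without UMIs used 3 counts, over all members of the lone library or of both descending libraries. Endothelial cells had at least 4 UMIs of Pecam1 and Cdh5 and at most 1 of C1q, with no Ptprc. Cells were thinned to 2000 UMIs for shares, leaving out 1, 3, 0 and 31 members. Doublet scores came from Scrublet in scanpy 1.11.5, with as many barcodes called as 0.8% per 1000 predicts.

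Genes were named by their lists, by the 12 largest fold changes in each direction past the threshold, and by the 15 largest differences from Mmp12 Itgax macrophages, with genes of the rule left out; genes more abundant in members than in other cells were added after their values were seen. The members and lists were chosen with earlier results of these data known. The test was tried on simulated data. Alternatives changed the scaling, filter, tool, libraries, gate and cell filters. Intervals cover counting error only. One result on a withheld item is not reported here.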

Additional observations from a re-analysis of the deposited data

How the results depend on the processing

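Every value in brackets below gives genes higher, then lower. For the arch, where 21 and 6 genes were called, the counts were 40 and 30 with DESeq2 size factors in edgeR, 36 and 23 with no filter on low counts, 43 and 27 with 3 libraries in the fit, 42 and 27 with the gate applied to thinned cells, 128 and 53 with a resident sum of at least 1, 38 and 25 at 5% mitochondrial UMIs, 43 and 30 with at least 20 C1q UMIs, and 1 and 0 without cells of 10 or more red cell UMIs. DESeq2 called 5 higher. The lower genes numbered 21 with no Mmp12 or Itgax UMI, 23 without the top doublet scores, 21 without cells of 10 or more fibroblast or smooth muscle UMIs, and 15 with cells thinned before summing. For the adventitia (280 and 158) they were 58 and 29 with DESeq2, 639 and 389 with a resident sum of at least 1, 133 and 70 with no Pecam1 or Cdh5 UMI, and 125 and 49 without red cell UMIs; the higher genes numbered 570 with no filter and 432 with 3 libraries in the fit. Fewer cells or genes entered several of these fits, and the cause was otherwise not tested. The alternatives on C1q, fibroblast, smooth muscle and red cell UMIs were chosen after seeing the data.

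All 27 genes called in the arch kept their direction in every alternative that tested them, except Ecm1 with no Pecam1 or Cdh5 UMI (log2 fold change 0.05875). Leaving out a descending library left no residual degree of freedom and gave no test, but each named gene kept its direction. No paired analysis was possible because fewer than 2 replicate numbers recur between them.

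The share of all cells moved with no Pecam1 or Cdh5 UMI to 1.13%, 0.563% and 0.460% (descending a, descending b, arch), without red cell UMIs to 2.02% (descending a), 0.829% (arch) and 4.08% (adventitia), and in the arch to 1.15% without fibroblast or smooth muscle UMIs. In the adventitia it was 4.08% and 9.07% with a resident sum of at least 3 or 1, 3.52% at 5% mitochondrial UMIs and 4.77% with at least 20 C1q UMIs. The share of C1q cells moved to 74.2% (descending a) and 32.3% (arch) with no Pecam1 or Cdh5 UMI, and to 71.8%, 32.3% and 54.9% (descending b, arch, adventitia) with at least 20 C1q UMIs. With the gate thinned it was 28.4% (arch) and 28.7% (adventitia), without fibroblast or smooth muscle UMIs 44.6% and 24.1%, and without red cell UMIs 33.3% and 22.8%. In the adventitia it was 16.1% and 35.8% with a resident sum of at least 3 or 1 and 14.7% at 5% mitochondrial UMIs. At 2-fold, 220 genes were higher and 151 lower than in Mmp12 Itgax macrophages. Depth and 40 arch cells limit what low genes can show.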

Other observations

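Of the clotting and fibrinolysis list, F13a1 and Gas6 are described above. Its member S100a10, which presents plasminogen at the cell surface, stood at 886, 1207 and 940.4 CPM, and endothelial cells held it at 613, 591 and 737.5 CPM. Of 16 prostanoid and leukotriene genes, Alox5ap, the partner of 5-lipoxygenase, stood at 824.5, 710 and 598 CPM and Alox5 itself at 144, 114 and 90.2 CPM, against 0.228, 0.122 and 0.432 CPM in endothelial cells. Pla2g2d, a secreted phospholipase, stood at 183, 118 and 157 CPM in members and at 0 UMIs in the Mmp12 Itgax macrophages of the 3 libraries. In the arch 0 of 14 clotting genes and 0 of 11 prostanoid and leukotriene genes tested passed by edgeR. Over all genes tested there 0.487% were higher and 0.139% lower, so 0 calls in such short lists lie near that share. In the adventitia, of 14 clotting genes tested 1, Thbs1, rose and 3 fell (Tgm2, Gas6 and F13a1). Of 11 genes tested in the other list 1, Ltc4s, fell. Over all genes tested in the adventitia 6.5% were higher and 3.67% lower, so single calls in such short lists lie near those shares.

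The gelatinase Mmp9 stood at 161, 121.5 and 199.5 CPM in members, with 0 UMIs in the Mmp12 Itgax macrophages. Mmp13, a collagenase, was the reverse, at 0, 0 and 4.75 CPM against 736, 763 and 355 CPM. The iron and haem list gave 0 calls of 11 genes tested in the arch. Of 19 cell cycle genes only 4 were abundant enough to test, with Pcna at 30.5, 94.9 and 76.0 CPM, and 0 passed in the arch. For both lists 0 calls lie near the share over all genes, 0.487% higher and 0.139% lower.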
